A study of Mus musculus with 2 samples.

Results

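The 33 genes described here make sterols and fatty acids, and they were read out in single cells of mouse alveolar organoids grown with or without interleukin-1β (IL-1β). They were taken by symbol from a fixed list that was drawn up with earlier results of these data known. All 33 were found among the 27998 genes of both count matrices. Of these, 20 form the sterol branch, from the condensing enzyme Hmgcs1 to the late reductase Dhcr7 together with the regulators Insig1 and Srebf2 and the sterol carrier Stard4. The other 13 form the fatty acid branch, from the supply of acetyl-CoA and NADPH through Fasn to the desaturases and elongases, together with the regulator Srebf1.

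Alveolar type 2 (AT2) cells, the surfactant-producing stem cells of the alveolus, were isolated from tamoxifen-treated Sftpc-CreERT2;R26RTomato mice of the C57BL/6 strain, in which Cre recombinase driven by the promoter of surfactant protein C (Sftpc) labels AT2 cells. The cells were grown as organoids in co-culture with lung stromal cells and treated with PBS (control) or IL-1β, so that stromal cells were exposed as well. Droplet-based single-cell RNA sequencing of unique molecular identifiers (UMIs) gave 1 library per condition. The treatment and the library therefore cannot be told apart, no test between conditions could be made, and each interval given below is a 95% interval for counting error alone.

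AT2 cells synthesise the lipids of surfactant themselves. Acetyl-CoA is carboxylated and built into palmitate, which is desaturated, elongated and esterified into phosphatidylcholine, whereas the mevalonate pathway turns acetyl-CoA into isoprenoids, squalene and cholesterol. Transcription of both branches is controlled by the sterol regulatory element-binding proteins, SREBP1 (Srebf1), which acts mainly on fatty acid genes, and SREBP2 (Srebf2), which acts mainly on sterol genes. When sterols are plentiful, INSIG proteins retain the SREBPs in the endoplasmic reticulum, and Insig1 is itself an SREBP target. SREBPs bind beside NF-Y, a factor that recognises the CCAAT box.

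Because a shared control element is what ties these genes together in textbooks, the start regions of the members were read for 4 short motifs on both strands, in RefSeq windows of GRCm38.p6 that run from 250 bases before to 50 bases after a transcript start. Windows were found for 26 of the 33 members, 16 of the sterol and 10 of the fatty acid branch, and a gene with several windows counted as holding a motif if any of them did. The CCAAT box stood in a window of all 16 sterol members and of 6 of the 10 fatty acid members, beside 41.1% of all 27025 genes with a window and 42.8% of the 8795 such genes that were measured in AT2-lineage cells. The GC box GGGCGG stood in 22 of the 26 members, beside 38.2% of all genes and 70.1% of the measured ones. The E-box CACGTG stood in 4 members, all of the sterol branch, beside 12.0% of the measured genes. The sterol regulatory element written as TCACNCCAC stood in 1 member, Hmgcs1, beside 1.30% of the measured genes. A match describes these letters only and was not tied to binding of any factor.

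The stretches of 5 members are shown because they span the range of the IL-1β comparison that follows, with Hmgcs1, Insig1 and Fasn among the genes past 1.5-fold lower and Ebp and Me1 the only members above their control level in the AT2 lineage. They are written 5′ to 3′ on the gene's strand, end at the transcript start or at the nearest annotated exon before it, and carry in capitals each CCAAT box in either orientation (CCAAT or ATTGG) and the TCACNCCAC match of Hmgcs1. In GRCm38.p6 they lie at chr13:119690101-119690350 for Hmgcs1 (plus strand), chr5:28071162-28071362 for Insig1 (plus strand), chr11:120824548-120824797 for Fasn (minus strand), chrX:8193513-8193762 for Ebp (minus strand) and chr9:86695954-86696164 for Me1 (minus strand).
Hmgcs1: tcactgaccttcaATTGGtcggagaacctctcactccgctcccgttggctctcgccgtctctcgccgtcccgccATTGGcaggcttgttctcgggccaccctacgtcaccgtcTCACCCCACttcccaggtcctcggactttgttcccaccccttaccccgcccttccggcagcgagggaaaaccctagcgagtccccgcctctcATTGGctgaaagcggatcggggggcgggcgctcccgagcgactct
Insig1: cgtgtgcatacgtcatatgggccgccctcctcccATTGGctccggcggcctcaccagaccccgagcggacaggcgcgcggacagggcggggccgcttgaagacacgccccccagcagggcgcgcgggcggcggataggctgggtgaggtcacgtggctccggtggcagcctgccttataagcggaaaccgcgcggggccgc
Fasn: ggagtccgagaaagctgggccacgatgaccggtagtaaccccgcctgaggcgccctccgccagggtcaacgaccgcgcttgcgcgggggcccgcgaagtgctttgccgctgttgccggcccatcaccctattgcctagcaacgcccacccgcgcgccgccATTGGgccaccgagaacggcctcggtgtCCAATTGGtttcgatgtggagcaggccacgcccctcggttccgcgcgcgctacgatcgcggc
Ebp: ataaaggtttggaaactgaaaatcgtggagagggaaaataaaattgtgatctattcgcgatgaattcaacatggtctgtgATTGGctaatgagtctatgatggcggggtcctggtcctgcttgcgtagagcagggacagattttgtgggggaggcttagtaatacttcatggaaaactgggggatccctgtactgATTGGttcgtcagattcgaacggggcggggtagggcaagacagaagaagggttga
Me1: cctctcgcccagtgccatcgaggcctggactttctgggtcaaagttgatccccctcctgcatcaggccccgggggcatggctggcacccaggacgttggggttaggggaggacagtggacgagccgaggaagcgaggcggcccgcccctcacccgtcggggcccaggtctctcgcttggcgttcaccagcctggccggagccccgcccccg

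In the printed stretches, Hmgcs1 held 3 CCAAT boxes, which began 237, 176 and 45 bases before the start, and the sterol regulatory element TCACCCCAC 137 bases before it. Fasn held 3 CCAAT boxes, of which the pair beginning 62 and 59 bases before the start overlapped on opposite strands. Insig1 held 1 CCAAT box and Ebp held 2 in the printed stretch. Me1 held none in its printed stretch and 1 in the window of its other annotated start. Whether the presence of the box went with a level of a member below or above its control level was not tested.

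There were 2101 barcodes with 33965848 UMIs in the control library and 3066 with 41220175 UMIs in the IL-1β library, with median depths of 14613 and 11497 UMIs per cell. Cells were clustered over both libraries and named from marker genes, which gave AT2-like cells, primed (pAT2-like) and cycling (cAT2-like) AT2 cells, AT1-like cells, damage-associated transient progenitor-like (DATP-like) cells, airway-like cells and stromal cells. No pAT2 marker was among the leading genes of any pAT2-like cluster. The largest of these clusters had a mean log2 fold of 0.319 for pAT2 and 0.245 for AT2 markers. The 3 AT2 classes are pooled below as the AT2 lineage, which comprised 906 control and 2066 IL-1β cells. Sftpc stood at 97701 UMIs per 1000000 (CPM) in the control AT2 lineage and 69529 CPM in the IL-1β AT2 lineage, Ager, the AT1 marker, at 11987 and 7367 CPM in AT1-like cells, and the collagen gene Col1a2 at 1449 and 1474 CPM in stromal cells. The 2 libraries shared 11 cell barcodes, and leaving these cells out moved no branch ratio by more than its counting interval.

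In the AT2 lineage both branches stood lower in the IL-1β library. The 20 sterol genes together summed to 1943 CPM (1920 to 1967) in control and 1097 CPM (1084 to 1110) in IL-1β cells, a ratio of 0.565 (0.555 to 0.574). The 13 fatty acid genes summed to 24697 CPM (24614 to 24780) in control and 8786 CPM (8749 to 8823) in IL-1β cells, a ratio of 0.356 (0.354 to 0.358). Member by member, 31 of 33 genes had a ratio below 1, 19 were lower by 1.5-fold or more, among them 10 sterol and 9 fatty acid genes, and 0 were higher by 1.5-fold. Among all 11498 genes with at least 50 UMIs in these cells, 8.96% were lower and 17.4% were higher by 1.5-fold. The median log2 ratio was -0.71 over the members and 0.11 over all genes. When the scale left out surfactant, lysozyme, mitochondrial and ribosomal protein genes, the share of lower calls among all calls moved from 34.0% to 45.7%. On that scale 23 members were lower and 0 higher, beside 1337 lower (11.6%) and 1588 higher of 11498 genes.

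The cells compared came from almost wholly different clusters. Control AT2-lineage cells lay mostly in 1 AT2-like cluster led by Bex2 and Bex4 and in the cycling cluster, whereas IL-1β cells lay mostly in 3 pAT2-like clusters. Scd1 was among the 10 leading genes of that AT2-like cluster, although no member was used for clustering. Sftpc was also lower in the IL-1β cells, and the median depth was 14367 UMIs in control and 11152 in IL-1β cells. Their part in the lower lipid gene levels was not tested.

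**Figure D1:**
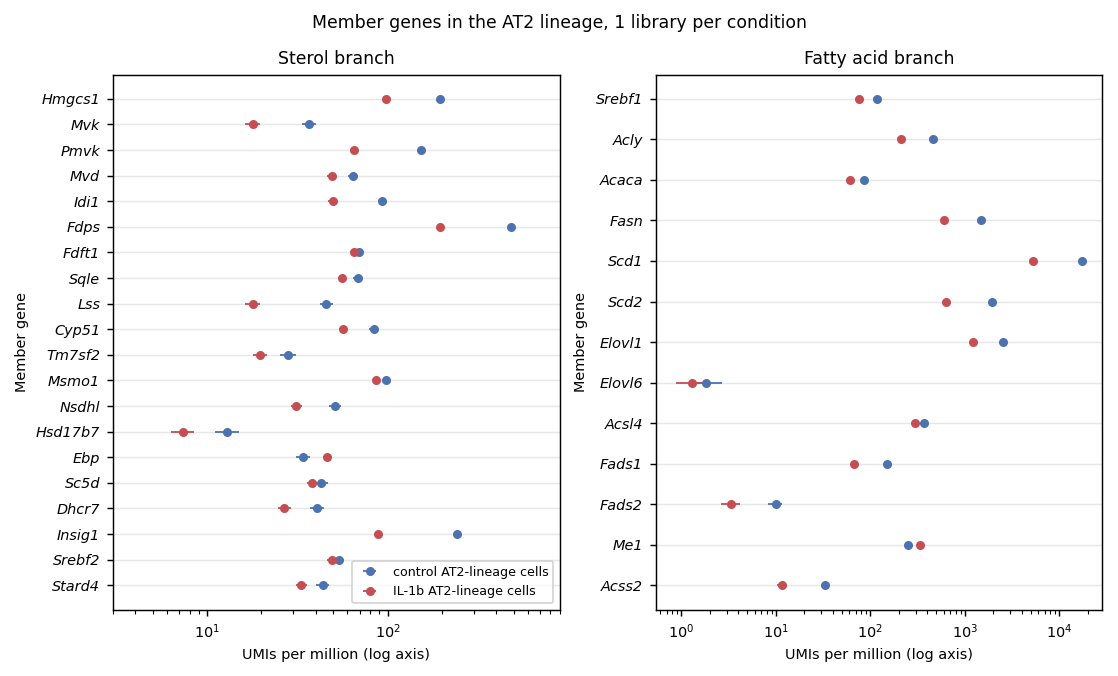
Level of each member in AT2-lineage cells of the control and the IL-1β library, in CPM on a log axis, with sterol genes at left and fatty acid genes at right. Points are library sums and bars are 95% counting intervals, mostly narrower than the points. The IL-1β point lies left of the control point for every gene except Ebp and Me1.

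Among the enzymes of the mevalonate pathway, Hmgcs1, which condenses acetyl-CoA units into HMG-CoA, stood at 196 CPM in control and 98.6 CPM in IL-1β cells, a ratio of 0.504 (0.477 to 0.533). The 2 kinases that follow in the pathway, Mvk and Pmvk, had ratios of 0.486 (0.427 to 0.554) and 0.422 (0.395 to 0.450). Mvd, the decarboxylase that makes isopentenyl diphosphate, stood at 64.2 and 49.0 CPM and stayed within 1.5-fold. Idi1, which isomerises that product, had a ratio of 0.530 (0.489 to 0.574). Fdps, the farnesyl diphosphate synthase, stood at 484 CPM in control and 194 CPM in IL-1β cells, a ratio of 0.402 (0.387 to 0.417). Thus 5 of these 6 early enzymes were past 1.5-fold lower.

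The enzymes that commit farnesyl units to sterols were closer to their control level. Fdft1, the squalene synthase, stood at 69.4 and 65.1 CPM, and the interval of its ratio, 0.865 to 1.02, included 1. Sqle, the squalene epoxidase, stood at 68.4 and 56.1 CPM, a ratio of 0.820 (0.754 to 0.892). Lss, the lanosterol synthase that acts next, differed more, with 45.8 CPM in control, 18.0 CPM in IL-1β cells and a ratio of 0.392 (0.346 to 0.444). Neighbouring steps of the route thus differed in their ratios beyond counting error.

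Lanosterol is turned into cholesterol by a series of demethylations, reductions and shifts of a double bond. The demethylases Cyp51 and Msmo1 had ratios of 0.673 (0.622 to 0.729) and 0.882 (0.823 to 0.945), and the reductase Tm7sf2 one of 0.698 (0.609 to 0.801), all within 1.5-fold. Nsdhl and Hsd17b7, which act with Msmo1 in removing the methyl groups, were past 1.5-fold lower, with ratios of 0.612 (0.551 to 0.679) and 0.568 (0.459 to 0.704). Ebp, the isomerase of the sterol double bond, was the only sterol member above its control level, at 34.1 CPM in control and 46.3 CPM in IL-1β cells, a ratio of 1.36 (1.22 to 1.52). Sc5d, the desaturase after it, stood at 43.1 and 38.3 CPM, and Dhcr7, which makes cholesterol from its direct precursor, was lower with a ratio of 0.659 (0.588 to 0.740). Late enzymes therefore spanned ratios from 0.568 to 1.36.

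Of the regulators, Insig1 had the lowest ratio of the sterol branch. It stood at 242 CPM in control and 88.7 CPM in IL-1β cells, a ratio of 0.366 (0.347 to 0.387). Srebf2, the gene of the factor itself, stood at 53.6 and 49.0 CPM, and its interval, 0.832 to 1.00, reached 1. Srebf1 stood at 117 and 75.8 CPM, a ratio of 0.648 (0.606 to 0.694), so that the regulator of the fatty acid branch was past 1.5-fold lower and that of the sterol branch was not. Stard4, a carrier that moves cholesterol between membranes, stood at 43.7 and 33.3 CPM and stayed within 1.5-fold.

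In the fatty acid branch the stearoyl-CoA desaturases, which place the double bond of oleate and palmitoleate, had the lowest ratios, and Scd1 held the most UMIs of all members. Scd1 stood at 17295 CPM in control and 5285 CPM in IL-1β cells, a ratio of 0.306 (0.304 to 0.308), and its UMIs made up 70.0% of the branch in control and 60.2% in IL-1β cells. Without Scd1 the ratio of the other 12 genes together was 0.473. Scd2 stood at 1931 and 627 CPM, a ratio of 0.325 (0.318 to 0.331). Scd1 and Scd2 are close paralogs, and how reads matching both were assigned is not known here.

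The route to palmitate was lower at most steps. Acly, which releases acetyl-CoA from citrate, stood at 459 and 211 CPM, a ratio of 0.459 (0.442 to 0.476). Acss2, which makes acetyl-CoA from acetate, stood at 32.7 and 11.5 CPM, a ratio of 0.353 (0.303 to 0.411). Acaca, the carboxylase that commits acetyl-CoA to fatty acids, stood at 84.9 and 61.0 CPM, a ratio of 0.719 (0.665 to 0.777) and within 1.5-fold. Fasn, the synthase that builds palmitate, stood at 1468 and 603 CPM, a ratio of 0.411 (0.402 to 0.420). Me1, the malic enzyme that supplies NADPH, was the exception, at 252 CPM in control and 333 CPM in IL-1β cells, a ratio of 1.32 (1.27 to 1.38).

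Of the enzymes that modify and activate fatty acids, the elongase Elovl1 stood at 2531 and 1210 CPM, a ratio of 0.478 (0.471 to 0.486). Elovl6, which elongates palmitate, was barely detected in the AT2 lineage, with 25 UMIs in control and 31 in IL-1β cells, and no difference was detectable at this depth. The front-end desaturases of polyunsaturated fatty acids, Fads1 and Fads2, had ratios of 0.448 (0.420 to 0.479) and 0.334 (0.25 to 0.444), the latter on 136 and 80 UMIs. Acsl4, which activates arachidonate, stood at 367 and 297 CPM and stayed within 1.5-fold.

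The lower levels were seen in each of the 3 IL-1β clusters of the AT2 lineage when these were set beside the control AT2-like cluster, which held 804 control cells. Summed sterol genes stood at 1920 CPM in the control cluster and at 947 CPM in the cluster led by Dmkn and Spink5 (806 IL-1β cells), 1309 CPM in that led by Cxcl5 and Cd14 (683 cells) and 1070 CPM in that led by BC030867 and Ndufa4l2 (572 cells). Fatty acid genes stood at 25764 CPM in the control cluster and at 9598, 7698 and 8929 CPM in the same 3 clusters. The order of the 3 clusters thus differed between the branches, with the Cxcl5 cluster highest for sterol genes and lowest for fatty acid genes, in both cases outside the counting intervals of the other two. In all 3 clusters 25 of the 33 members stood below control, 12 of 13 in the fatty acid and 13 of 20 in the sterol branch, and 15 members were lower by 1.5-fold in all 3. Of 11344 genes with at least 50 UMIs over these clusters, 23% stood below control in all 3 and 4.45% were lower by 1.5-fold in all 3. Ebp stood above control in all 3 clusters, Mvd, Fdft1, Sqle, Msmo1 and Sc5d stood above it in the Cxcl5 cluster alone, Srebf2 in the BC030867 cluster alone, and Me1 in both clusters other than the Cxcl5 cluster. Acss2, Scd1, Scd2, Fasn, Insig1 and Fdps were lower by at least 1.5-fold in every one.

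A few control cells fell into pAT2-like clusters. These 16 cells had 11783 CPM (11363 to 12214) of fatty acid genes, 0.457 of the level of control AT2-like cells, and 1665 CPM (1509 to 1832) of sterol genes, 0.867 of that level. Beside them, the 2061 IL-1β pAT2-like cells stood at a ratio of 0.747 (0.720 to 0.775) for the fatty acid and 0.659 (0.599 to 0.728) for the sterol branch. Within control, the 86 cycling cells had 19543 CPM of fatty acid and 2136 CPM of sterol genes. The 83 control cells of an unnamed cluster led by Scgb1a1, which scored closest to AT2 cells but were left out of the AT2 lineage, had 25764 CPM of fatty acid and 2064 CPM of sterol genes, close to the AT2-like cluster.

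**Figure D2:**
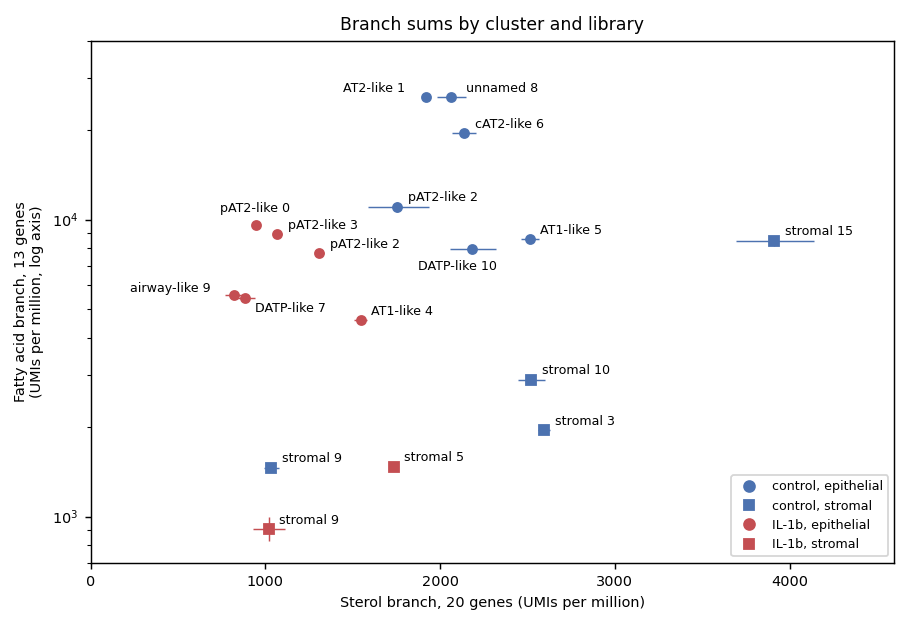
Summed sterol branch (x axis) and fatty acid branch (y axis, log scale), in CPM, for each cluster and library with at least 10 cells. Blue points are control and red points IL-1β cells, circles are epithelial and squares stromal clusters, numbers are cluster numbers, and bars are 95% counting intervals. Epithelial IL-1β clusters lie left of the epithelial control clusters on the sterol axis, whereas the stromal clusters lie at the bottom of the fatty acid axis apart from the small stromal cluster 15.

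Over the epithelial clusters most members varied with the rest of their branch. Spearman's rho was taken between a member and the sum of the rest of its branch, across 11 combinations of cluster and library with at least 30 cells. These share 2 libraries and are no replicates. In the sterol branch rho was 0.97 for Idi1, 0.93 for Dhcr7, and 0.92 for Mvk and Cyp51. It was 0.59 for Mvd, 0.54 for Hsd17b7, 0.53 for Srebf2 and -0.21 for Ebp. In the fatty acid branch it was 0.94 for Srebf1, 0.93 for Fasn and 0.91 for Acly, against 0.53 for Fads2, 0.31 for Scd2, 0.19 for Me1 and -0.28 for the barely detected Elovl6. Epithelial control clusters of this size had 1920 to 2513 CPM of sterol genes and IL-1β clusters 822 to 1545 CPM, so that the libraries did not overlap. For fatty acid genes they had 7975 to 25764 CPM and 4579 to 9598 CPM and overlapped. The rho of genes outside the branches was not taken, and the part of the difference between the libraries in these values was not tested. For the other fatty acid members the rest of the branch was largely Scd1.

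Cell by cell, the fatty acid difference between control AT2-like and IL-1β pAT2-like cells was a shift of nearly all cells. After each cell was thinned to 4500 UMIs, control AT2-like cells held a median of 117 fatty acid branch UMIs with quartiles of 95 and 146, and IL-1β pAT2-like cells a median of 37 with quartiles of 27 and 49. Of the IL-1β cells, 99.1% lay below the lower quartile of control AT2-like cells. So did 93.75% of the 16 control pAT2-like cells, which had a median of 53, and 55.8% of the 86 control cycling cells. Sterol branch UMIs were sparse, with medians of 8 in control AT2-like and 4 in IL-1β pAT2-like cells. Their quartiles were 6 to 11 and 3 to 7, and 63.3% of these IL-1β cells lay below the control lower quartile. Before thinning the medians were 264 and 82.9 fatty acid UMIs and 17.9 and 9.93 sterol UMIs per 10000. No cell was left out by the thinning. Within control AT2-like cells the 2 branches varied almost independently between cells, with a rank correlation of 0.13 over 804 cells of 1 library, which in counts this sparse is no finding.

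**Figure D3:**
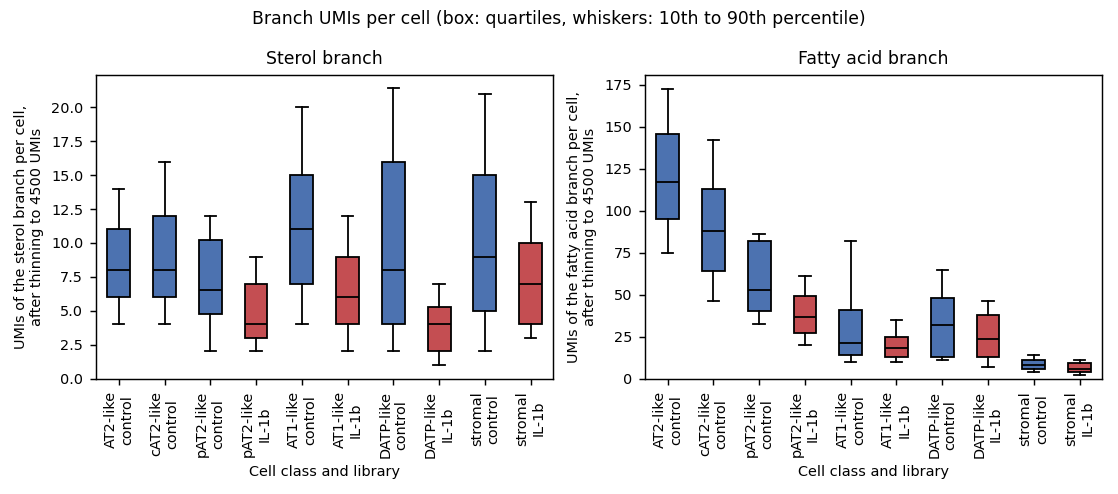
UMIs of the sterol branch (left) and the fatty acid branch (right) per cell after thinning each cell to 4500 UMIs, by cell class and library. Boxes span the quartiles with the median as a line, and whiskers reach the 10th and 90th percentiles. Fatty acid boxes of control AT2-like and IL-1β pAT2-like cells do not overlap, whereas those of the AT1-like cells have medians of 21 and 18.

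In AT1-like cells, 261 of control and 357 of IL-1β organoids, the sterol branch was lower as well. It summed to 2506 CPM (2456 to 2557) in control and 1559 CPM (1524 to 1594) in IL-1β cells, a ratio of 0.622 (0.603 to 0.641). The fatty acid branch summed to 8573 CPM (8480 to 8667) and 4576 CPM (4516 to 4637), a ratio of 0.534 (0.525 to 0.543). Of 31 members with at least 50 UMIs, 20 were lower by 1.5-fold and 0 were higher, 13 of them sterol and 7 fatty acid genes, beside 9.59% lower and 11.2% higher of 9361 genes, of which the lower calls made up 46.2% on this scale and 58.9% without the surfactant, lysozyme, mitochondrial and ribosomal protein genes. All 20 sterol members had a ratio below 1. The control cells came from a cluster led by Igfbp2 and Pmp22 and the IL-1β cells from one led by AW112010 and Serpinb9, whose leading genes held as many DATP as AT1 markers. With the highest 5% of doublet scores left out, 15 members were lower and 1, Acsl4, was higher, with a ratio of 1.69. The shares of all genes in that setting were not taken.

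Among single genes of AT1-like cells, Insig1 was again the lowest sterol gene, at 235 CPM in control and 93.3 CPM in IL-1β AT1-like cells, a ratio of 0.398 (0.354 to 0.446). Hmgcs1 stood at 344 and 220 CPM, a ratio of 0.640 (0.590 to 0.695). Fdft1, within 1.5-fold in the AT2 lineage, was lower here, at 161 and 92.7 CPM with a ratio of 0.577 (0.510 to 0.654), and Pmvk, lower in the AT2 lineage, stood here at 96.4 and 90.6 CPM with an interval of 0.816 to 1.08. Scd1 stood at 4415 and 2119 CPM, a ratio of 0.480 (0.468 to 0.492), and Fasn at 456 and 243 CPM, a ratio of 0.533 (0.494 to 0.574). Acaca, Acsl4 and Me1 had ratios above 1, of 1.10, 1.16 and 1.28, and Ebp one of 0.903 (0.786 to 1.04). Whether the ratios of the classes differ between organoids could not be tested with 1 library each.

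**Figure D4:**
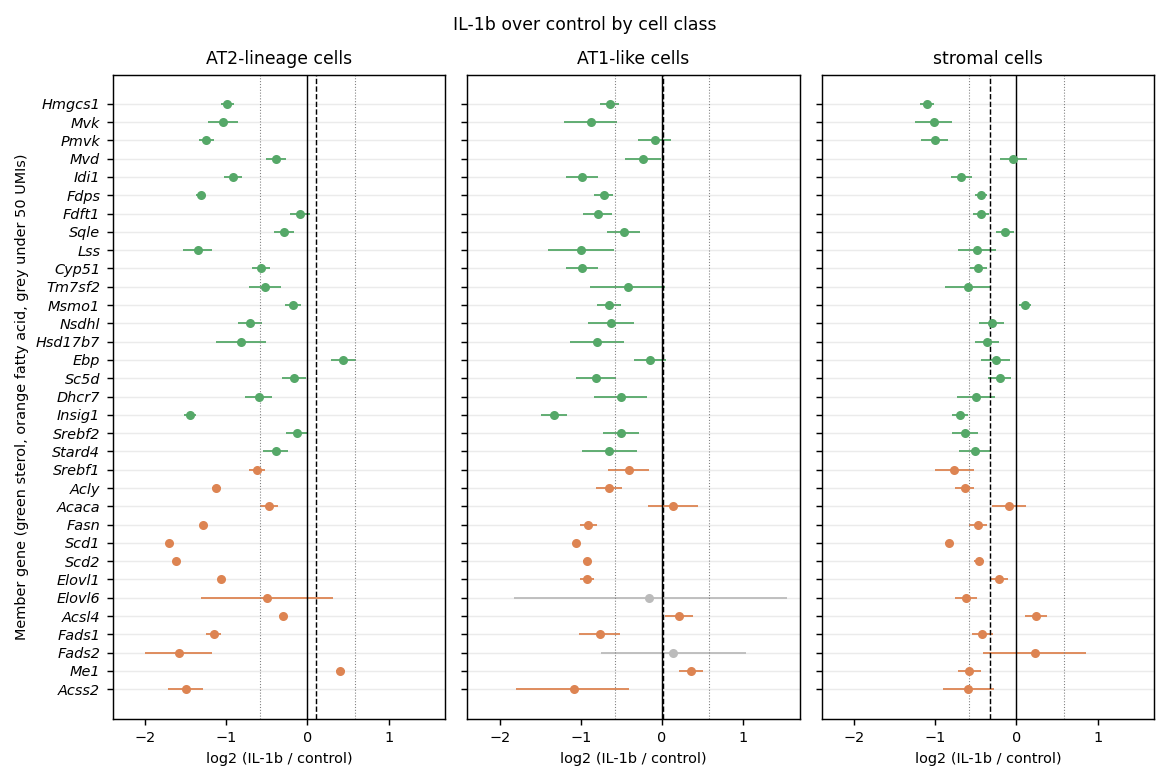
log2 ratio of IL-1β over control for each member in the AT2 lineage, in AT1-like and in stromal cells, with 95% counting intervals. Green points are sterol and orange points fatty acid genes, grey points had fewer than 50 UMIs, dotted lines mark 1.5-fold and the dashed line the median of all genes tested in that class. Most points lie left of the dashed line in each class. In stromal cells the dashed line itself lies at -0.33, and the median of the members lies nearer to it, at -0.48.

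Within the AT1-like cells the branches stood differently, in a split that was added after the data had been seen. When the AT1-like cells of each library were ranked by their share of Sftpc and put into 4 bins of like size, the sterol branch was lower in IL-1β cells in all 4 bins, with ratios of 0.607, 0.637, 0.605 and 0.626 from the lowest to the highest bin. The fatty acid branch had ratios of 0.963, 0.813, 0.544 and 0.425. The bins were made within each library and did not match in Sftpc, which stood at 9087 and 7516 CPM in the second and at 25796 and 16583 CPM in the third. In the lowest bin, where Sftpc stood at 3431 CPM in 66 control and 3904 CPM in 90 IL-1β cells, fatty acid genes stood at 3460 CPM (3331 to 3593) and 3332 CPM (3231 to 3436), with overlapping intervals, while Ager stood at 17094 and 9638 CPM. In the highest bin they stood at 13993 CPM (13779 to 14209) and 5946 CPM (5817 to 6077), but there Sftpc also differed, at 79200 and 38019 CPM. Over the bins the fatty acid level of AT1-like cells thus followed their Sftpc level in both libraries, and the sterol level did not. Ager stood at 6775 and 5769 CPM in the highest bin. With the highest 5% of doublet scores left out, 197 control and 331 IL-1β AT1-like cells gave a fatty acid ratio of 0.739. The part of doublets or mixed cells in the bins was not tested. The median AT1-like cell held 21 fatty acid UMIs per 4500 in control and 18 in IL-1β organoids, whereas the 90th percentiles were 82 and 35.

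**Figure D5:**
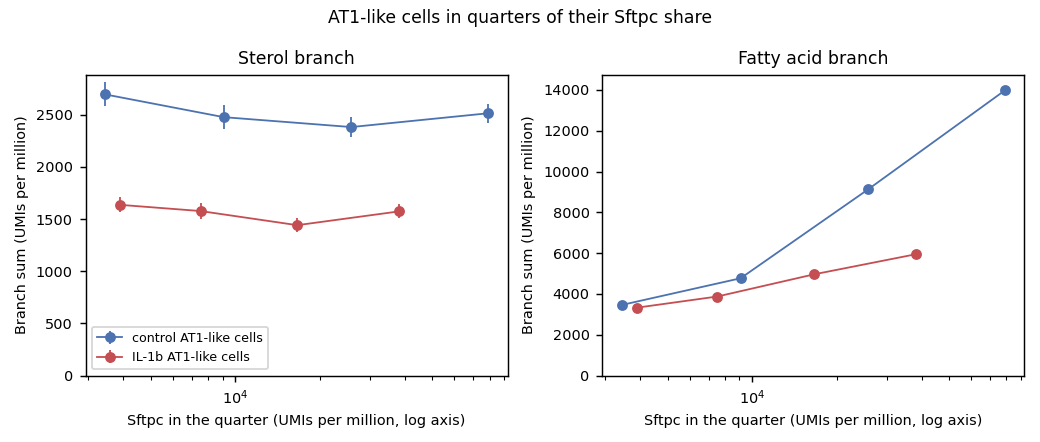
Summed sterol (left) and fatty acid branch (right) in AT1-like cells, in CPM, against the Sftpc level (log axis) of the bin of cells they belong to, for both libraries. Bars are 95% counting intervals, and each point holds 65 to 90 cells. The sterol lines run flat and apart, while the fatty acid lines start together at low Sftpc and separate as Sftpc rises.

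DATP-like cells were few, 33 in control and 88 in IL-1β organoids, and again came from separate clusters. The control cluster was led by Tpm2, Cox6a2 and Sprr1a and had no DATP naming marker among its leading genes. The IL-1β cluster had Ndrg1 and Cldn4 among them. In the control cluster Sftpc stood at 49670 CPM and Krt8 at 1031 CPM, in the IL-1β cluster at 21524 and 1831 CPM. The part of this difference in the ratios that follow was not tested. The sterol branch summed to 2185 CPM (2057 to 2320) and 885 CPM (828 to 945), a ratio of 0.405 (0.370 to 0.443), and the fatty acid branch to 7975 CPM (7728 to 8228) and 5406 CPM (5265 to 5551), a ratio of 0.678 (0.651 to 0.706). Only 22 members reached 50 UMIs. Of these 16 were lower by 1.5-fold and 1 was higher, beside 13.4% lower and 15% higher of 4335 genes, and the intervals of Sqle, Srebf1 and Acaca among the lower ones included 1. Insig1 stood at 358 CPM in control and 36.3 CPM in IL-1β cells, a ratio of 0.101 (0.069 to 0.145), and Fads1 at 111 and 15.7 CPM, a ratio of 0.141 (0.075 to 0.25). Scd1, at 4553 and 3360 CPM, stayed within 1.5-fold. The member that was higher was Ebp, at 24.3 and 69.6 CPM on 12 and 71 UMIs, a ratio of 2.87 (1.54 to 5.81).

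In stromal cells, 793 of control and 475 of IL-1β organoids, the share of members that were lower was near that of all genes. The sterol branch summed to 2346 CPM (2320 to 2372) and 1695 CPM (1669 to 1721), a ratio of 0.722 (0.709 to 0.736), and the fatty acid branch to 2121 CPM (2096 to 2146) and 1441 CPM (1417 to 1465), a ratio of 0.679 (0.666 to 0.693). However, 28.7% of the 11358 genes tested were lower and 7.15% higher by 1.5-fold, and the median log2 ratio over all genes was -0.33. Against that background 12 of 33 members were lower and 0 higher, with a median log2 ratio of -0.48. With every cell given the same weight 7 members were lower, and without the adipocyte-like cluster described next 8 were. The shares of all genes in these settings were not taken. In control stromal cells Scd1 stood at 4.46% of its AT2-lineage level, beside 3.86% for Sftpc. Without Scd1 the fatty acid ratio was 0.747. Hmgcs1, at 319 and 149 CPM with a ratio of 0.465 (0.438 to 0.494), Mvk and Pmvk had the lowest ratios. Msmo1 stood at 238 and 256 CPM, and Acsl4 at 70.2 and 83.1 CPM.

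Stromal levels depended on the cluster. The main control cluster, led by Dio2 and Dlk1 (586 cells), had 2595 CPM of sterol and 1953 CPM of fatty acid genes, and the main IL-1β cluster, led by Mmp3 and Dcn (457 cells), had 1734 and 1472 CPM. The only stromal cluster with cells of both libraries in number was the contractile cluster led by Acta2, with 111 control and 17 IL-1β cells. There sterol genes stood at 1035 and 1018 CPM, a ratio of 0.984 (0.893 to 1.08), and fatty acid genes at 1459 and 907 CPM, a ratio of 0.621 (0.562 to 0.686). Of these fatty acid sums, Scd1 held 679 CPM in control and 263 CPM in IL-1β cells, and thus most of the difference between them. Over all control stromal cells Scd1 stood at 4.46% of its AT2-lineage level, beside 3.86% for Sftpc. The ratio without Scd1 was not taken for the contractile cluster. A control cluster of 13 cells carried the adipocyte genes Adipoq at 594 CPM and Plin1 at 486 CPM and had 8483 CPM of fatty acid and 3912 CPM of sterol genes, 4.30 (4.13 to 4.48) and 1.69 (1.60 to 1.79) times the level of the other control stromal cells. It held 0 IL-1β cells.

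Between cell classes the fatty acid branch differed more than the sterol branch. In control organoids the fatty acid branch of the AT2 lineage was 2.88 (2.85 to 2.91) times that of AT1-like cells and 11.6 (11.5 to 11.8) times that of stromal cells. The sterol branch was 0.775 (0.757 to 0.794) and 0.828 (0.815 to 0.842) times theirs. Scd1 made up 70.0% of the fatty acid sum of the control AT2 lineage. The median ratios over the fatty acid members were 2.24 against AT1-like and 3.07 against stromal cells. Those over the sterol members were 0.675 and 0.753, beside 0.782 and 0.810 over all genes. Against AT1-like cells, 11 of 12 tested fatty acid members were higher in the AT2 lineage by 1.5-fold, the exception being Scd2 at 1931 and 2297 CPM, while 10 of 20 sterol members were lower and 1, Pmvk, was higher. The background was 12.1% higher and 35.1% lower of 10313 genes, and the share of lower sterol members was not far above it. Against stromal cells 11 of 13 fatty acid members and 2 of 20 sterol members were higher, and 1 fatty acid and 7 sterol members were lower. Of 11816 genes 19.3% were higher and 37.8% lower, and the share of lower sterol members was near that of all genes. The lower fatty acid member was Elovl6, at 110 CPM in stromal cells and 1.82 CPM in the AT2 lineage.

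In IL-1β organoids this difference between classes was smaller for fatty acid genes. Their sum in the AT2 lineage was 1.92 (1.89 to 1.95) times that of AT1-like cells and 6.10 (5.99 to 6.20) times that of stromal cells. Scd1 made up 60.2% of that AT2-lineage sum, and the median ratios over the fatty acid members were 1.69 and 2.20. Against AT1-like cells 7 of 12 tested fatty acid members were higher by 1.5-fold and 2 lower, while 0 of 20 sterol members were higher and 5 lower. The background was 11.3% higher and 27.1% lower of 11146 genes. Scd2 was among the lower fatty acid members, at 627 and 1213 CPM. Against stromal cells 9 of 13 fatty acid members and 1 of 20 sterol members were higher, and 1 fatty acid and 8 sterol members were lower. All genes gave 31.5% higher and 21.7% lower of 11837. The sterol sum of the AT2 lineage was 0.704 (0.686 to 0.722) times that of AT1-like and 0.647 (0.635 to 0.660) times that of stromal cells. The median ratios over the sterol members were 0.730 and 0.725, beside 0.817 and 1.11 over all genes, so that the sterol members against stromal cells lay below all genes.

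AT2 genes were also found in stromal cells. Their source there, such as free RNA of AT2 cells or doublets, was not tested. In control stromal cells Sftpc stood at 3.86% of its AT2-lineage level, Lamp3 at 3.27% and Lyz2 at 3.42%. Scd1 stood at 4.46%, near these AT2 genes, Elovl1 at 5.63% and Fasn at 10.1%. In IL-1β stromal cells Sftpc stood at 5.95% and Scd1 at 8.18%. In control AT1-like cells Sftpc stood at 35.1%, and Scd1 at 25.5%, Elovl1 at 28.7%, Fasn at 31.1% and Acsl4 at 31.8% all lay below it, although above Lamp3 at 20.7% and Lyz2 at 13.02%. In IL-1β AT1-like cells Sftpc stood at 24.9% and Lamp3 at 34.0%, with Elovl1 at 31.6% between them and Scd1 at 40.1%, Fasn at 40.4% and Acsl4 at 45.4% above both. AT2 genes did not share 1 level in AT1-like cells. In control Sftpd stood at 39.2% and Lyz1 at 4.27%, and in IL-1β organoids Sftpd stood at 125% and Sftpa1 at 13.2%. The percentage of Sftpc in AT1-like cells is therefore that of 1 AT2 gene and not of AT2 genes in general. The part of AT2 RNA in the AT1-like levels of these members was not tested. In control AT1-like cells every sterol member lay above Sftpc, from 62.7% for Pmvk to 377% for Hsd17b7, and so did Scd2 at 119%. In IL-1β AT1-like cells every sterol member also lay above Sftpc, from 83.3% for Tm7sf2 to 381% for Hsd17b7, with Scd2 at 193%.

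Beyond the members, 5 further lists show which lipid genes of the AT2 lineage stood with them. Of 17 tested genes of the wider SREBP machinery and its targets, 8 were lower by 1.5-fold and 0 higher in IL-1β cells, beside 8.96% lower and 17.4% higher of all genes, the background also of the lists that follow. Mid1ip1, which activates acetyl-CoA carboxylase, stood at 510 and 167 CPM, a ratio of 0.328 (0.315 to 0.341), and Gpam, the acyltransferase that starts glycerolipid synthesis, at 7.37 and 3.28 CPM. The highest ratios in that list were those of Nr1h3, the gene of the sterol sensor LXRα, at 14.4 and 19.3 CPM, and Insig2, at 38.2 and 46.1 CPM, both within 1.5-fold. Of 13 genes of phosphatidylcholine and surfactant lipid assembly, 3 were lower and 1 higher. Lpcat1, which makes dipalmitoyl phosphatidylcholine, stood at 1112 and 401 CPM, a ratio of 0.360 (0.351 to 0.370), and Abca3, the lipid transporter of lamellar bodies, at 517 and 269 CPM, a ratio of 0.520 (0.503 to 0.538), while Gpd1 was higher, at 42.3 and 63.8 CPM, and Cept1 had a ratio of 1.44. Of 11 genes of sterol uptake, storage and export, 3 were lower, with Npc2 at 6842 and 4337 CPM and Stard3 at a ratio of 0.642, and 1 was higher, Lipa, the lysosomal acid lipase, at 3.36 and 29.3 CPM with a ratio of 8.74 (6.48 to 12.0).

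In the lists of lipid breakdown and storage the calls in the AT2 lineage were on the higher side. Of 12 tested genes of fatty acid oxidation, 0 were lower and 4 were higher by 1.5-fold, among them the long-chain dehydrogenase Acadl, at 67.1 and 134 CPM with a ratio of 2.00 (1.86 to 2.15), and Cpt2 of the mitochondrial carnitine shuttle, with a ratio of 1.86 (1.56 to 2.24). Of 8 genes of lipid storage, 0 were lower and 4 were higher, with the triglyceride-forming acyltransferase Dgat2 at 6.42 and 18.8 CPM, a ratio of 2.93 (2.33 to 3.73), the lipase inhibitor G0s2 at a ratio of 2.58 (2.22 to 3.01), and Plin2, the coat protein of lipid droplets, at 114 and 229 CPM, a ratio of 2.01 (1.90 to 2.13). Since 17.4% of all genes were higher in this comparison, 4 of 12 and 4 of 8 lie above that share on small numbers. In AT1-like cells 5 of 13 oxidation genes and 2 of 6 storage genes were higher and 0 lower, beside 11.2% higher of all genes. In stromal cells 0 of 13 oxidation genes were higher and 1 lower, and 3 of 8 storage genes were higher and 1 lower, beside 7.15% higher and 28.7% lower of all genes. Plin2 was higher in all 3 classes and stood in stromal cells at 94.6 CPM in control and 439 CPM in IL-1β organoids, a ratio of 4.64 (4.36 to 4.95).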

How the data were processed

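The authors sequenced droplet-based 3′ single-cell libraries, and per the study's methods aligned and quantified them with Cell Ranger on GRCm38. The submitters' processing notes name Cell Ranger, Scanpy 1.3.6 and, with no role given, the builds mm9 and GRCm38. The authors deposited raw UMI counts per gene and cell barcode, with no normalization. Genes were matched by symbol.

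The study's filter was applied, which asks for over 500 and under 7000 genes and for over 2000 UMIs per cell (2083 of 2101 control and 3059 of 3066 IL-1β barcodes). Its doublet rule, with scrublet scores over 0.7 or cluster means over 0.6, marked only 2 and 1 cells, and these were removed. How many doublets remained was not tested. Epithelial cells were clustered with scanpy 1.11.5 and leidenalg 0.10.2 (resolution 1.0, 50 components, 15 neighbors), without the genes of the lists. A cluster took the name with the highest mean marker fold unless markers of another class led it. The naming conditions were set after clusters had been seen, and names may differ from those of the study.

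UMIs were summed per class and library and scaled to 1000000 (CPM), with exact Poisson intervals for levels and exact binomial intervals for ratios at 95% confidence. A gene entered a comparison with at least 50 UMIs over both groups, and 1.5-fold was the threshold of a call. With 1 library per condition there were no replicates and no test. Depth was 33965848 and 41220175 UMIs. Reads come from 3′ ends. The calls were tested on simulated data. All members are reported, and of the further lists those with the largest ratios each way that had at least 50 UMIs. Plin2 and the 5 printed promoters were chosen after their values had been seen. The members and lists were chosen with earlier results of these data known. Promoter windows are from RefSeq (GRCm38.p6). In 30 of 33 member windows, bases just after the start were found in the first part of a GENCODE transcript of the same gene. The windows of Sc5d, Nsdhl and the printed Hmgcs1 did not match in this way. No windows were found for Scd1, Scd2, Fads1, Fdps, Fdft1, Sqle and Stard4. Alternatives changed the clustering, the cell filter, the scaling, the weight of cells and the minimum of UMIs.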

Additional observations from a re-analysis of the deposited data

How the results depend on the processing

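Of 61 alternative values of the branch ratios 30 stayed within the counting interval, 31 moved and 0 crossed 1, and of 64 alternative counts of members past 1.5-fold 62 stayed within 1.5 times. The shared barcodes, cycling cells, Scd1 and the Adipoq-led cluster were left out in alternatives chosen after seeing the data. Several alternatives also changed which cells made up a class. The AT2 lineage held 906 control and 2066 IL-1β cells in the main setting. It held 814 and 1295 with separate clustering, and 923 and 1376 without the highest 5% of doublet scores. At resolutions of 0.5 and 2.0 it held 1006 and 1369, and 698 and 1773. The part of these changes of cells in the ratios was not tested. In the AT2 lineage the sterol ratio (0.565) was 0.515 with each library clustered separately, 0.527 and 0.543 at resolutions of 0.5 and 2.0, 0.521 without the highest 5% of doublet scores and 0.520 when scaled without surfactant, lysozyme, mitochondrial and ribosomal protein genes. The fatty acid ratio (0.356) was, in the same order, 0.384, 0.370, 0.371, 0.375 and 0.328. It was 0.362 with all variable genes used for clustering, 0.360 with no filter on cells, 0.335 with every cell weighing the same, 0.346 without cycling cells and 0.473 without Scd1. In AT1-like cells the sterol ratio (0.622) was 0.581 with that scaling and 0.577 with equal weights. The fatty acid ratio there (0.534) was 0.628 with separate clustering, 0.573 at resolution 2.0, 0.571 with the Louvain algorithm and 0.739 without the highest doublet scores. It was 0.499 with that scaling, 0.617 with equal weights and 0.591 without Scd1. In stromal cells the sterol ratio (0.722) was 0.708 without the highest doublet scores and 0.70 with that scaling. The fatty acid ratio there (0.679) was 0.706 with separate clustering, 0.658 with that scaling, 0.754 with equal weights, where 7 members were lower, 0.730 without the Adipoq-led cluster and 0.747 without Scd1. The cause was not tested. Resolution 0.5, all variable genes and no cell filter left under 30 IL-1β AT1-like cells and gave no value for that class. No paired analysis was possible because each condition had 1 library. Intervals cover counting error of UMIs only, and treatment, library and cluster cannot be told apart.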
